A study of Mus musculus with 31 samples.

Results

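The core circadian clock genes described here are Arntl, Clock and Npas2, which encode activators, Per1, Per2, Per3, Cry1 and Cry2, which encode period and cryptochrome repressors, and Nr1d1 and Nr1d2, which encode the REV-ERB repressors. They are 10 of the 55288 gene identifiers in the study's pair of count tables, and all 10 had an entry in both tables. They were taken by name, and the choice was made on measured values: the levels of activators and repressors with insulin in wild-type and ERRα-/- liver, and in ERRα3SA liver and muscle. For those comparisons, and for the differences between them, levels and calls are therefore a description from which nothing is read. The knockout against wild type at a given treatment, and wild-type muscle against liver, were not named in the choice, although it was made with the levels of all 8 groups in view.

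As background, BMAL1 (encoded by Arntl) pairs with CLOCK or with its paralogue NPAS2 and binds E-box DNA elements, which drives transcription of the Per, Cry and Nr1d genes. PER and CRY proteins then enter the nucleus and inhibit that same pair of activators, while REV-ERBα (Nr1d1) and REV-ERBβ (Nr1d2) bind ROR elements and repress Arntl, so that Arntl and its repressors peak at opposite times of day. In liver this oscillator times much of metabolism, and feeding is known as a strong time cue for it.

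The study asked how insulin acts through the orphan nuclear receptor ERRα, encoded by Esrra. RNA of whole tissue was sequenced in 31 libraries from mice on a C57BL/6N background. Insulin livers came from wild-type (WT) mice or mice lacking ERRα in the whole body (ERRα-/-, written KO), which were without food for 12 h overnight, were given saline or insulin (1 unit/kg) into the peritoneum and were killed 4 h after that, at zeitgeber time ZT6 (6 h after lights on). There were 4 WT saline, 4 WT insulin, 4 KO saline and 3 KO insulin livers. A separate experiment took liver and skeletal muscle (gastrocnemius and soleus) of homozygous ERRα3SA mice, in which 3 serines of ERRα were changed to alanine by CRISPR/Cas9 editing, and of their WT littermates, with 4 libraries in each of the 4 groups. Those mice were on a normal diet, and the methods give their time of collection as ZT2 to ZT6, without the time of each mouse. The mice were males of 2 to 3 months unless the methods say otherwise. Total counts per library ranged from 35871419 to 48317108 in the insulin experiment and from 20481405 to 33412022 in the ERRα3SA experiment.

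The labels were checked first against Esrra itself, in CPM (counts scaled to the library size). Esrra was at 32.3, 51.3, 42.7 and 40.5 CPM in the WT saline livers and at 1.63, 0.703, 1.15 and 1.04 CPM in the KO saline livers. With insulin it was at 53.7, 96.5, 56.1 and 59.0 CPM in WT and at 0.833, 0.576 and 0.299 CPM in KO. Every KO liver lay far below every WT liver. The fitted difference was -5.20 on the log2 scale with saline (edgeR, Benjamini-Hochberg adjusted p = 2.58e-06) and -6.86 with insulin (adjusted p = 3.55e-05). The summed level of 6 hepatocyte markers was 57390 to 113000 CPM in the livers and 8.55 to 19.4 CPM in the muscles, where Cyp2e1 made up most of it. The summed level of 8 muscle fibre markers was 90300 to 198800 CPM in the muscles.

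Some libraries stood apart from their groups. In the insulin experiment, WT insulin replicate 3 held 118 CPM of the muscle fibre markers, all 8 of them at 1 CPM or more and Myh1 the most abundant at 31.9 CPM, whereas KO insulin replicate 1 held 10.8 CPM and no other insulin liver more than 3.53 CPM. WT insulin replicate 2 had 1.88% of its counts on the mitochondrial genome, against 3.88 to 4.17% in the other WT insulin livers. In the ERRα3SA experiment, 3SA liver replicate 4 had a hepatocyte marker sum of 57390 CPM, against 88510 to 101200 CPM in the other 3SA livers. WT liver replicate 1 held 15.2 CPM of the muscle fibre markers and 3SA liver replicate 3 held 13.3 CPM. No other liver of that experiment held more than 0.255 CPM of them. 3SA muscle replicate 1 had 19.3% mitochondrial counts, against 9.15 to 9.85% in the other 3SA muscles, Esrra at 25.8 CPM against 103 to 140 CPM, a muscle fibre marker sum of 198800 CPM against 90300 to 117600 CPM, and an endothelial marker sum of 230 CPM against 137 to 151 CPM. 3SA muscle replicate 4 had a stellate and fibroblast marker sum of 2874 CPM, against 1021 to 1552 CPM in the other 3SA muscles, a macrophage marker sum of 85.3 CPM against 25.5 to 32 CPM, and the lowest muscle fibre marker sum, at 90300 CPM. These libraries were kept, and the number of the 10 clock genes with an adjusted p under 0.05 was also taken without each library in turn.

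Levels were compared between genes after division by exon length, as RPKM (CPM per kilobase of exon). That length joins all annotated exons of a gene, not those of the transcripts present in the tissue, so the order depends on it. In WT saline liver (mean ± SD, n = 4) the order ran from Nr1d1 at 18.9 ± 4.37 and Nr1d2 at 15.4 ± 1.69 RPKM, through Per1 at 8.78 ± 1.16, Clock at 6.26 ± 0.764 and Cry2 at 5.68 ± 1.39 RPKM. Below them came Per2 at 2.64 ± 0.727, Cry1 at 2.56 ± 0.585, Per3 at 1.26 ± 0.648, Arntl at 0.533 ± 0.189 and Npas2 at 0.116 ± 0.0814 RPKM. Within 1 SD of each mean, Nr1d1 and Nr1d2, Clock and Cry2, Per2 and Cry1, and Per3 and Arntl could not be placed in order. The REV-ERB genes thus had the highest levels of the 10 per length of annotated exon in the fasted WT liver. The activator Arntl was near the bottom although its partner Clock was not. In WT insulin liver (n = 4) Arntl was at 2.86 ± 0.466 RPKM and Per3, at 0.201 ± 0.0696 RPKM, was the lowest of the 10. In the WT livers of the ERRα3SA experiment (n = 4), normalised separately, Nr1d1 at 13.6 ± 5.91 RPKM again had the highest mean, with Arntl at 4.46 ± 0.569, Npas2 at 2.42 ± 0.519 and Per3 lowest at 0.154 ± 0.0636 RPKM. WT muscle (n = 4) had Nr1d1 at 64.0 ± 5.47 and Nr1d2 at 22.2 ± 3.00 RPKM, with Npas2 at 0.664 ± 0.168 and Per2 at 0.528 ± 0.191 RPKM as the lowest.

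The promoters of the genes on which the insulin comparison turns, and of Per1, are given because an E-box, an AGGTCA core, an ERR element or a D-box is where the clock factors named above, ERRα and the PAR bZIP factor DBP are known to bind. The windows hold 300 bases around the annotated start, from RefSeq on GRCm38.p6, read along the gene's strand. A window was found for 9 of the 10 genes, and Per2 had none. Capitals mark matches on either strand to the E-box CACGTG, which reads the same from both strands, to the nuclear receptor core AGGTCA, which read from the other strand becomes TGACCT and which also ends the ERR element TCAAGGTCA, to the D-box TTATGTAA or to the cAMP response element TGACGTCA. Arntl lies at chr7:113207215-113207514 on the plus strand, Per1 at chr11:69098699-69098998 on the plus strand, Per3 at chr4:151044616-151044915 on the minus strand and Cry1 at chr10:85185005-85185304 on the minus strand.
Arntl: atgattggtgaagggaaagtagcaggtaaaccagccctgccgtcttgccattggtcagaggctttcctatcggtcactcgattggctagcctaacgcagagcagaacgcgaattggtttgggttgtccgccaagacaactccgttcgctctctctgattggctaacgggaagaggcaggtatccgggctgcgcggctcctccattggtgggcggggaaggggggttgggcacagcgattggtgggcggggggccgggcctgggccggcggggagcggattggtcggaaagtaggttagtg
Per1: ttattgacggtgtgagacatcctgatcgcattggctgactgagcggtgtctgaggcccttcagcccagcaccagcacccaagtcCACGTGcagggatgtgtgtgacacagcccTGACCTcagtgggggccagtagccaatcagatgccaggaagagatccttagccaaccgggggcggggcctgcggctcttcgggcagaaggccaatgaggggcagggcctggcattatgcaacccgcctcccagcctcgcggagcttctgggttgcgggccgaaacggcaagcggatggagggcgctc
Per3: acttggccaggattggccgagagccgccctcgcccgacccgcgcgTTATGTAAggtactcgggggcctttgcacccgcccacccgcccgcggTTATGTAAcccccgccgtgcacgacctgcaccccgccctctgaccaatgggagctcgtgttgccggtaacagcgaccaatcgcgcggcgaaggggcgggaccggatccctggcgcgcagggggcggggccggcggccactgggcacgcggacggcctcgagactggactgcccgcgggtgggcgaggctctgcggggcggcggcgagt
Cry1: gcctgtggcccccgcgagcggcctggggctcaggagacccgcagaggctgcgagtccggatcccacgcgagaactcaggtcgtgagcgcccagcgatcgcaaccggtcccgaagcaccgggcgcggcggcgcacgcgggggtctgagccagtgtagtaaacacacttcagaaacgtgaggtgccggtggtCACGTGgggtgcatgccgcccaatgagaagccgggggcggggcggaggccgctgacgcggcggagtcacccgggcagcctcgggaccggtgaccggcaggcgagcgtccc

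The E-box letters began 166 bases before the Per1 start and 60 bases before the Cry1 start, and 7.24% of all 27025 promoters held them. Per3 held the D-box letters at 205 and 158 bases before its start, and 0.955% of promoters held any. AGGTCA was found for Per1, 137 bases before the start, and for Nr1d2, 77 bases before it, with 16.0% of promoters holding it. None of the 9 windows held the ERR element (0.407% of promoters) or the cAMP response element (1.88%). A match is a description of letters only, and no match says only that the letters were not in this window. Only these exact letters were searched, so an element spelled otherwise, a ROR element included, was left unmarked.

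In WT liver, insulin against saline asks how the fasted liver responds to the hormone 4 h after injection. The activator Arntl was higher and the repressor Per3 lower in every insulin liver than in any saline liver, and the repressor Cry1 was higher, while Clock and the REV-ERB genes lay at like levels. Because these are whole-tissue samples, a change in the number of cells expressing a gene and a change in its RNA per cell cannot be told apart. The p-values set the difference between groups against the spread between mice.

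Arntl, which encodes BMAL1, was at 2.31, 4.43, 5.69 and 3.63 CPM in the WT saline livers and at 16.8, 20.9, 24.5 and 23.9 CPM in the WT insulin livers. All 4 insulin livers lay above all 4 saline livers with no overlap, a 5.36-fold difference (log2 2.42, SE 0.25, adjusted p = 0.00197 by edgeR with Benjamini-Hochberg over all genes tested). Clock, the partner of BMAL1, was at 82.2, 90.8, 97.4 and 73.3 CPM with saline and 88.7, 69.8, 106 and 82.4 CPM with insulin. The Clock groups overlapped throughout, with a difference of 0.01 (SE 0.15) on the log2 scale. Npas2, the paralogue of Clock, was at 0.518, 0.797, 0.891 and 0.0231 CPM with saline and 1.36, 2.13, 5.67 and 3.23 CPM with insulin. Every insulin liver was above every saline liver for Npas2, but the saline values rest on 1 to 39 counts a library, and the difference of 2.47 (SE 0.72) did not pass (adjusted p = 0.0964). DESeq2 gave Npas2 an adjusted p of 0.00423, within a range of 0.00423 to 0.21 over 13 alternatives.

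**Figure D1:**
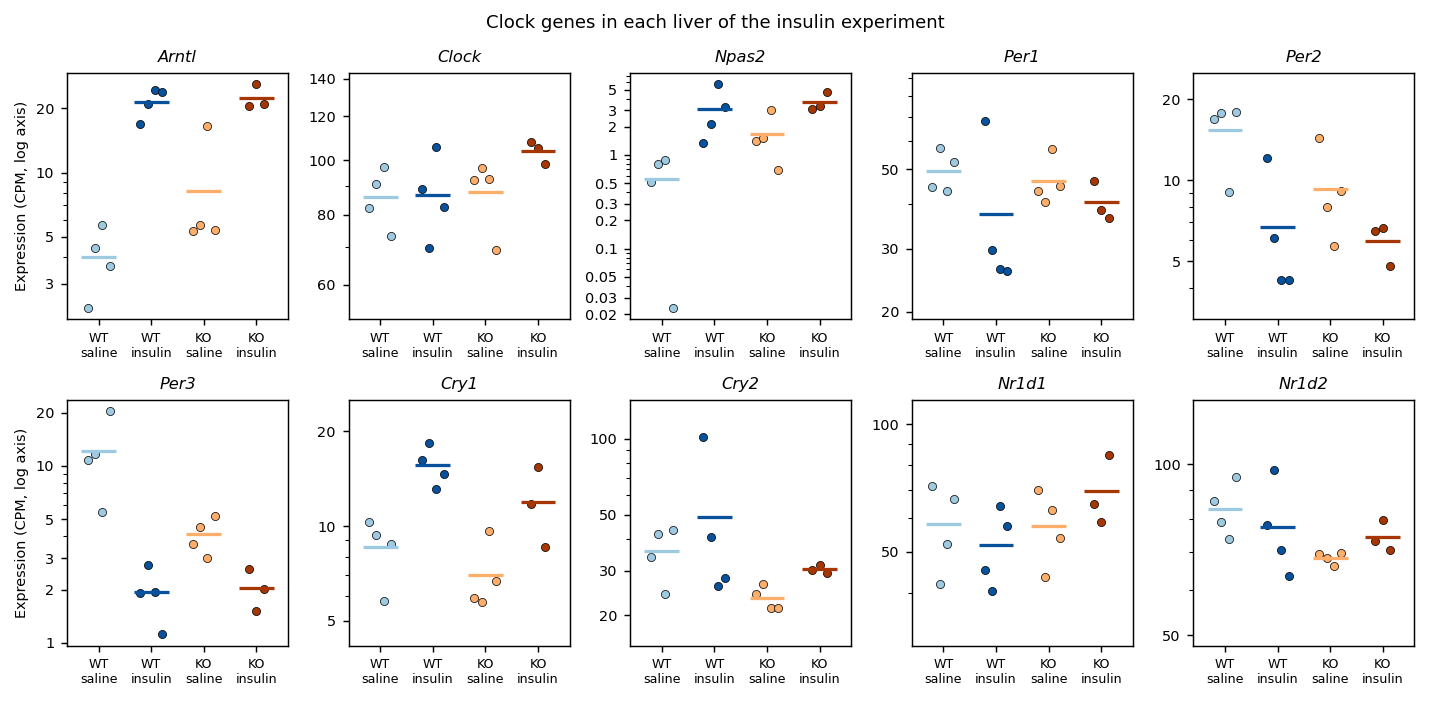
Expression of the 10 clock genes in each liver of the insulin experiment, in CPM on a log axis; points are livers in replicate order and lines are group means (n = 4, or 3 for KO insulin). Arntl with insulin sits at 16.8 CPM or more in both genotypes, and the lowest Npas2 point is a library with 1 count.

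Among the period genes, Per3 was at 10.8, 11.7, 5.49 and 20.5 CPM in the WT saline livers and at 1.91, 2.75, 1.94 and 1.12 CPM in the WT insulin livers. All insulin livers lay below all saline livers, with a fitted change of -2.65 on the log2 scale (SE 0.39, adjusted p = 0.00613), a ratio of 0.159. Per2, the period gene best known for resetting by feeding and hormones, was at 16.9, 17.8, 9.10 and 17.9 CPM with saline and 12.1, 6.13, 4.26 and 4.27 CPM with insulin. The Per2 groups overlapped through saline replicate 3 and insulin replicate 1, and the difference of -1.21 (SE 0.34) had an adjusted p of 0.0927. Per1 was at 44.6, 57.3, 43.5 and 52.5 CPM with saline and 68.1, 29.7, 26.3 and 26 CPM with insulin. Insulin replicate 1 was the highest of the 8 livers for Per1 and the other 3 insulin livers were the lowest, and the fitted difference was -0.40 (SE 0.29, adjusted p = 0.509).

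Of the cryptochromes, Cry1 was at 10.3, 9.35, 5.78 and 8.78 CPM in the WT saline livers and at 16.2, 18.3, 13.1 and 14.7 CPM in the WT insulin livers. All insulin livers were above all saline livers, a 1.82-fold difference (log2 0.86, SE 0.19, adjusted p = 0.0374). Cry2 was at 34, 41.9, 24.3 and 43.5 CPM with saline and 102, 40.9, 26.1 and 28.1 CPM with insulin. Insulin replicate 1 again stood far above the rest, the other livers overlapped, and the difference of 0.45 (SE 0.39) did not pass (adjusted p = 0.596) and was -0.18 without that replicate. The REV-ERB gene Nr1d1 was at 71.5, 42.1, 52.0 and 66.5 CPM with saline and 45.2, 40.5, 64.3 and 57.5 CPM with insulin. Nr1d2 was at 86.1, 79.2, 73.8 and 94.8 CPM with saline and 78.0, 97.9, 70.6 and 63.7 CPM with insulin. Both REV-ERB genes overlapped between treatments, with differences of -0.16 (SE 0.19) for Nr1d1 and -0.11 (SE 0.15) for Nr1d2.

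In all, 3 of the 10 clock genes (Arntl, Per3 and Cry1) had an adjusted p under 0.05 with insulin in WT liver, where 3.16% of all 13463 genes tested did, and 5 did by DESeq2, which added Npas2 and Per2 (adjusted p = 0.0083) and called 936 genes in all, against 425 by edgeR. The median change of the 10 was -0.05 and that of all genes 0.004 on the log2 scale. The 10 pool activators with repressors, so opposite changes can cancel in their median. By role it was 2.42 for the activators, -0.4 for the period and cryptochrome repressors and -0.14 for the REV-ERB repressors. Since the genes were selected on this contrast, nothing is read from these numbers. Without WT insulin replicate 1, Per1 (-0.86, adjusted p = 0.0125) and Per2 (-1.66, adjusted p = 0.0116) passed, against ranges of 0.0125 to 0.721 and 0.0083 to 0.226 over 13 alternatives. Cry1 missed the threshold without WT saline replicate 1 (0.0641), 2 (0.068), 3 (0.0838) or 4 (0.117) and without WT insulin replicate 1 (0.0635), 2 (0.0744) or 4 (0.0823), its adjusted p running from 0.00194 to 0.117 over 13 alternatives. Without WT insulin replicate 3, the liver that held muscle fibre RNA, 3 genes were called. The hepatocyte marker sum was 84010 to 95610 CPM with saline and 84940 to 96080 CPM with insulin. Of 4 stellate and fibroblast markers 1 fell, Lrat (-0.88, SE 0.19, adjusted p = 0.0339), and their median was -0.61, while their summed level overlapped, at 110 to 131 CPM with saline and 101 to 134 CPM with insulin, and its part in these values was not tested.

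In KO liver the same question was asked in mice lacking ERRα, with 4 saline and 3 insulin livers. Arntl was at 5.30, 5.67, 16.5 and 5.34 CPM with saline and at 20.5, 25.9 and 21.0 CPM with insulin. Every insulin liver was above every saline liver, although saline replicate 3 lay nearer to the insulin livers than to its own group. The difference was 1.45 on the log2 scale (SE 0.37, adjusted p = 0.0653). Clock was at 92.2, 96.9, 92.6 and 69.1 CPM with saline and 108, 105 and 98.7 CPM with insulin, a difference of 0.24 (SE 0.13) in groups that did not overlap. Npas2 was at 1.42, 1.53, 3.03 and 0.687 CPM with saline and 3.07, 3.35 and 4.69 CPM with insulin. Saline replicate 3 was the highest of the saline livers for Npas2 as it was for Arntl, and the difference was 1.15 (SE 0.42, adjusted p = 0.183).

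Per3 in KO liver was at 3.62, 4.51, 3.03 and 5.23 CPM with saline and 2.63, 1.51 and 2.01 CPM with insulin. The insulin livers were all lower, with a difference of -1.0 (SE 0.29, adjusted p = 0.0931). Per2 was at 14.4, 7.95, 5.72 and 9.11 CPM with saline and 6.51, 6.64 and 4.8 CPM with insulin, overlapping at saline replicate 3, with a difference of -0.64 (SE 0.28). The Per2 difference ran from -0.81 to -0.35 as each library was left out. Per1, at 40.5 to 56.9 CPM with saline and 36.4 to 46.2 CPM with insulin, overlapped (-0.21, SE 0.14). Cry1 was at 5.91, 5.75, 9.66 and 6.72 CPM with saline and 11.8, 15.5 and 8.60 CPM with insulin. Saline replicate 3 and insulin replicate 4 crossed over for Cry1, and its difference was 0.76 (SE 0.24, adjusted p = 0.118). Cry2 was at 21.3 to 26.5 CPM with saline and 29.4 to 31.7 CPM with insulin, without overlap (0.38, SE 0.12, adjusted p = 0.116). The REV-ERB differences were 0.27 (SE 0.17) for Nr1d1 and 0.12 (SE 0.09) for Nr1d2, the latter at 66.1 to 69.9 CPM with saline and 70.8 to 79.9 CPM with insulin.

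None of the 10 genes passed in KO liver by edgeR (0 of 10, beside 2.91% of 13684 genes), 6 of 10 had an unadjusted p under 0.05 (17.8% of all genes did), and DESeq2 called 2, Per3 (adjusted p = 0.0235) and Cry1 (adjusted p = 0.0388), among 988 genes in all against 398 by edgeR. Over 12 alternatives those adjusted p-values ranged from 0.0235 to 0.313 and from 0.0338 to 0.438. The median change of the 10 was 0.26, and that of all genes -0.022, on the log2 scale. By role it was 1.15 for the activators, -0.21 for the period and cryptochrome repressors and 0.2 for the REV-ERB repressors. Nothing is read from these counts, since the choice of genes used this contrast too. By edgeR, Arntl passed in KO liver with no filter on low counts (1.45, adjusted p = 0.00834), with all groups in the fit (1.45, adjusted p = 0.0418) and with the replicate block (2.04, adjusted p = 0.00055), in which KO saline replicate 3 has no insulin partner. Without KO saline replicate 3 there were 3 calls: Arntl at 2.04 (adjusted p = 0.000777, range 0.00055 to 0.252), Npas2 at 1.61 (0.0348, range 0.0348 to 0.442) and Cry1 at 0.96 (0.0338). The hepatocyte marker sum was 83900 to 109700 CPM with saline and 105500 to 113000 CPM with insulin in KO, and its part in these values was not tested.

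**Figure D2:**
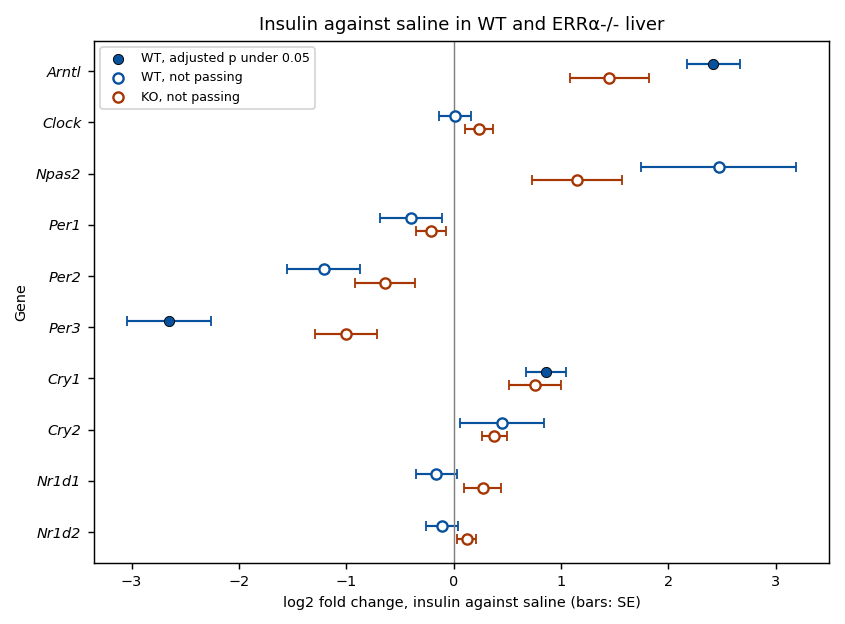
Change of each clock gene with insulin on the log2 scale in WT (blue) and ERRα-/- (brown) liver; bars are SE of the edgeR fit and filled points have an adjusted p under 0.05. Arntl, Npas2 and Cry1 lie to the right of 0 and Per2 and Per3 to the left in both genotypes, and the filled points are Arntl, Per3 and Cry1 in WT.

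The difference between genotypes in the change with insulin was tested directly as an interaction over all 15 livers. By edgeR, 0 of 10 genes passed (0% of 14670 genes did), 1 of 10 had an unadjusted p under 0.05 (8.79% of all genes did), and DESeq2 called 0 of the clock genes and 20 genes in all, giving no adjusted p for Npas2 and Per3. That gene was Per3, whose change was 1.66 higher on the log2 scale in KO than in WT (SE 0.50, unadjusted p = 0.00438, adjusted p = 0.428). The interaction was -0.97 (SE 0.48, adjusted p = 0.589) for Arntl and -1.32 (SE 0.89, adjusted p = 0.685) for Npas2. As each library was left out it ran from -1.19 to -0.37 for Arntl and from -1.66 to -0.85 for Npas2. The median over the 10 was 0.22, and over all genes -0.02. By role it was -0.97 for the activators, 0.2 for the period and cryptochrome repressors and 0.33 for the REV-ERB repressors. The calls of Arntl, Per3 and Cry1 in WT and not in KO are therefore not shown to differ between genotypes.

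The relation of activator to repressor can be followed liver by liver as the log2 level of Arntl minus that of a repressor. For Per3 this difference was -2.20, -1.40, 0.05 and -2.48 in the WT saline livers and 3.10, 2.90, 3.62 and 4.36 in the WT insulin livers. In KO it was 0.54, 0.33, 2.43 and 0.03 with saline and 2.94, 4.06 and 3.36 with insulin. Because it is not divided by exon length, the difference is read between livers only, and 0 does not mean equal levels. All 7 insulin livers lay above all 8 saline livers, and the WT saline and KO saline livers overlapped. For Nr1d1 the difference was -4.92, -3.23, -3.18 and -4.18 in WT saline and -1.42, -0.96, -1.39 and -1.27 in WT insulin livers. In KO it was -3.71, -2.93, -1.93 and -3.32 with saline and -1.65, -1.18 and -2.01 with insulin. Here the groups separated in WT, and in KO saline replicate 3 lay inside the insulin range. The shift against Nr1d1 came with Nr1d1 levels that overlapped between treatments. These differences share Arntl and are not independent.

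**Figure D3:**
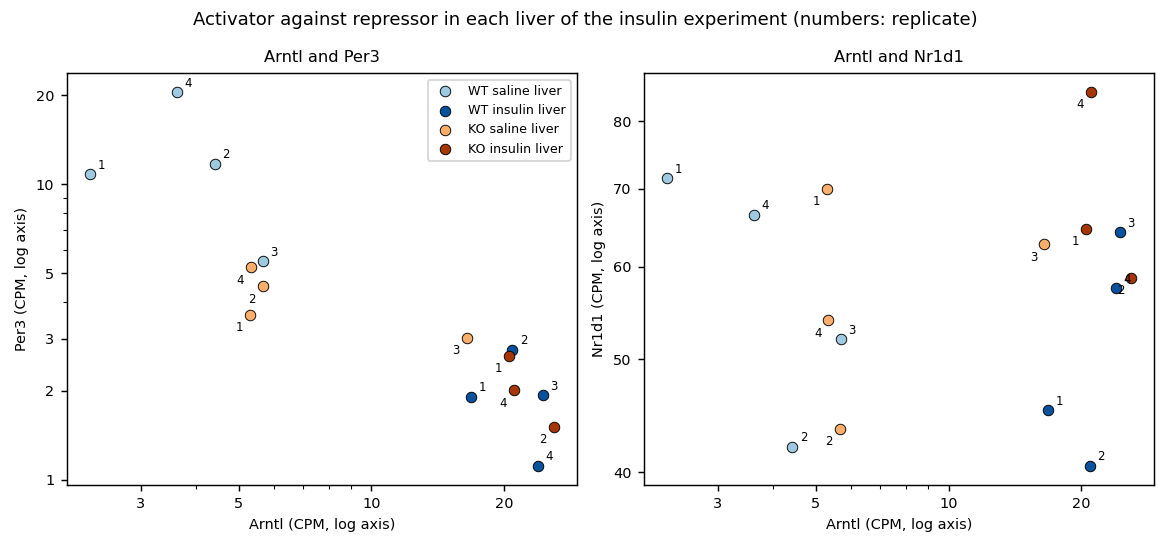
Level of Arntl against Per3 (left) and Nr1d1 (right) in each of the 15 insulin livers, in CPM on log axes, with replicate numbers at the points. WT saline livers sit at lower Arntl and higher Per3 than the insulin livers, and Nr1d1 spans 40.5 to 84.8 CPM across the whole range of Arntl.

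Within groups, deviations of log2 CPM from the group mean were compared over the 15 livers as a description. Of the clock genes, Arntl deviated most against its paralogue Arntl2 (Pearson r = -0.85), Bhlhe41 (r = -0.66), Dbp (r = -0.65), Per2 (r = -0.64), Tef (r = -0.53) and Per3 (r = -0.47). Without KO saline replicate 3 these were -0.66 for Arntl2, -0.32 for Bhlhe41, -0.61 for Dbp, -0.58 for Per2, -0.25 for Tef and -0.46 for Per3, and Arntl2 rested on 1 to 39 counts a library. With Csnk1e (r = 0.49), Npas2 (r = 0.46) and Clock (r = 0.34) the values over all 15 livers were positive but far from the highest, Npas2 ranking 970 and Clock 2199 among all genes, and without the same library they were 0.11, 0.36 and 0.35. Without WT saline replicate 4, the liver with 1 Npas2 count, the value for Npas2 was 0.71. The value for Clock was 0.22 without KO saline replicate 4. Between Arntl and Nr1d1 the value was -0.07, moving to -0.32 without KO saline replicate 3 and to 0.13 without WT saline replicate 1. In naming the genes most like Arntl, Nr1d1 and Per1, predicted genes (Gm and Rik symbols and the like) were passed over. Among the rest of 14589 genes, those most like Arntl were Mthfd1l (r = 0.86), Tpp1 (r = 0.84), Smc4 (r = 0.83), Ddhd1 (r = 0.82) and Ifi44 (r = 0.81). Without KO saline replicate 3 the value for Tpp1 was 0.60 and that for Mthfd1l 0.77. For Nr1d1 the most like were Clp1 (r = 0.88) and, at 0.86 each, Fxyd7, Gjb2, Srsf2 and Slc18b1. For Per1 they were Slc2a1 (r = 0.92), Cyth1 (r = 0.91), Cdk17 (r = 0.90), Plxnb1 (r = 0.89) and Klf3 (r = 0.88), and Per1 followed Cry2 (r = 0.85) and Ciart (r = 0.77). The Per1 values rested in large part on WT insulin replicate 1: without it they were 0.66 for Slc2a1, 0.54 for Cyth1, 0.65 for Cdk17, 0.60 for Plxnb1, 0.26 for Klf3 and 0.37 for Cry2, but 0.69 for Ciart.

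Knockout against WT with saline asks what loss of ERRα does in the fasted liver, and it shares its saline livers with the insulin comparisons. Per3 was at 3.03 to 5.23 CPM in the 4 KO livers and 5.49 to 20.5 CPM in the 4 WT livers, all KO livers below all WT livers. Its difference was -1.56 on the log2 scale (SE 0.34, ratio 0.338), which edgeR did not call (adjusted p = 0.161). Nr1d2 was likewise lower without overlap, at 66.1 to 69.9 against 73.8 to 94.8 CPM (-0.29, SE 0.10, adjusted p = 0.289). Cry2, at 21.3 to 26.5 against 24.3 to 43.5 CPM, differed by -0.62 (SE 0.17, adjusted p = 0.214). Arntl, at 5.30 to 16.5 against 2.31 to 5.69 CPM, overlapped, with a difference of 1.03 (SE 0.40, adjusted p = 0.328) that was 0.44 without KO saline replicate 3, and Per2 differed by -0.73 (SE 0.28, adjusted p = 0.322). Npas2 differed by 1.58 (SE 0.73), and Clock, Per1, Cry1 and Nr1d1 by 0.03, -0.09, -0.29 and -0.01.

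By edgeR, 0 of 10 clock genes passed in this comparison (0.0816% of 13481 genes did), 5 of 10 had an unadjusted p under 0.05 (12.1% of all genes did) and DESeq2 called 2, Per3 (adjusted p = 0.000521) and Cry2 (adjusted p = 0.046), among 248 genes in all against 11 by edgeR. Over 13 alternatives the adjusted p ranged from 0.000521 to 0.345 for Per3 and from 0.046 to 0.521 for Cry2, and DESeq2 was the only alternative under 0.05 for either. The median difference of the 10 was -0.19 and that of all genes 0.004. By role it was 1.03 for the activators, -0.62 for the period and cryptochrome repressors and -0.15 for the REV-ERB repressors. Mitochondrial counts made up 3.16 to 3.91% in the KO and 3.68 to 4.82% in the WT saline livers. Of the Kupffer cell and macrophage markers 2 of 5 had an unadjusted p under 0.05 (median -0.37). Of the stellate and fibroblast markers 2 of 4 did (median -0.29), and 0 of either list passed by edgeR. The part of these in the values was not tested. With insulin, knockout and WT livers differed in Arntl by 0.05 (SE 0.17), Per3 by 0.08 (SE 0.38), Cry2 by -0.70 (SE 0.41) and Nr1d1 by 0.41 (SE 0.19, adjusted p = 0.498) on the log2 scale. The Cry2 value rested on WT insulin replicate 1, and was -0.07 without it. All 10 genes overlapped between genotypes, but the share of all genes that overlapped was not taken, so nothing is read from this count. By edgeR 0 of 10 passed (0.0585% of 13665 genes did) and 0 of 10 had an unadjusted p under 0.05 (10% of all genes did). DESeq2 called 0, among 241 genes in all. The median difference was 0.06 for the 10 genes and -0.021 for all genes.

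ERRα3SA against WT liver asks what the altered receptor does in mice on a normal diet. Arntl was at 33.6, 29.0, 32.4 and 39.3 CPM in the WT livers and at 34.7, 33.7, 34.4 and 36.4 CPM in the 3SA livers. Per3 was at 1.18, 2.33, 1.47 and 0.934 CPM in WT and 1.79, 1.52, 1.72 and 0.691 CPM in 3SA livers. The groups overlapped for each of the 10 genes, but the share of all genes that overlapped was not taken, so nothing is read from this. The differences were 0.05 (SE 0.09) for Arntl and -0.05 (SE 0.36) for Per3. Nr1d1 was at 38.3, 41.6, 65.8 and 21.7 CPM in WT and 46.1, 39.8, 66.5 and 13.0 CPM in 3SA livers, so that replicate 4 was the lowest and replicate 3 the highest in both groups. Per1 ranged from 4.75 to 17.2 CPM in WT and 2.96 to 10.2 CPM in 3SA livers (-0.63, SE 0.49), a difference of -0.04 without WT replicate 2 and of -1.11 without 3SA replicate 3. Nr1d2 differed by -0.30 (SE 0.22), and by -0.44 to -0.14 as each library was left out. Its level was 26.3 CPM in 3SA replicate 4 and 43.5 to 44.3 CPM in the other 3SA livers. That replicate was also the liver with the low hepatocyte marker sum, whose part in the value was not tested. By edgeR, 0 of 10 genes passed (0% of 13339 genes did), 0 of 10 had an unadjusted p under 0.05 (7.47% of all genes did) and DESeq2 called 0, among 42 genes in all. The medians were 0.03 for the 10 genes and 0 for all genes.

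In muscle, Arntl was at 35.0, 39.2, 38.3 and 46.0 CPM in WT and 43.7, 39.3, 38.3 and 52.0 CPM in 3SA mice. Per3 was at 14, 10.9, 14.4 and 9.51 CPM in WT and 5.91, 11.5, 13.4 and 3.33 CPM in 3SA muscles. The 3SA muscles split into replicates 2 and 3 inside the WT range and replicates 1 and 4 below it, and the Per3 difference was -0.51 (SE 0.38). Nr1d1 was at 193, 175, 209 and 212 CPM in WT and 138, 187, 199 and 136 CPM in 3SA muscles, again with replicates 1 and 4 low (-0.26, SE 0.15). The Per3 difference was -0.37 without replicate 1 and -0.24 without replicate 4, and ran from -0.81 to -0.24 as each library was left out. Replicate 1 was the muscle with 19.3% mitochondrial counts, low Esrra and 198800 CPM of muscle fibre markers, and replicate 4 the one with 2874 CPM of stellate and fibroblast markers, and the part of these in the values was not tested. Npas2 differed by 0.37 (SE 0.32) and Cry1 by -0.20 (SE 0.12). Leaving out 1 library moved Npas2 between 0.11 and 0.56 and Cry1 between -0.23 and -0.11. By edgeR, 0 of 10 genes passed (0% of 14081 genes did), 0 of 10 had an unadjusted p under 0.05 (4.77% of all genes did) and DESeq2 called 0, among 56 genes in all, and no removal of 1 library, replicates 1 and 4 included, gave a call. The medians were -0.19 for the 10 genes and 0.023 for all genes.

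**Figure D4:**
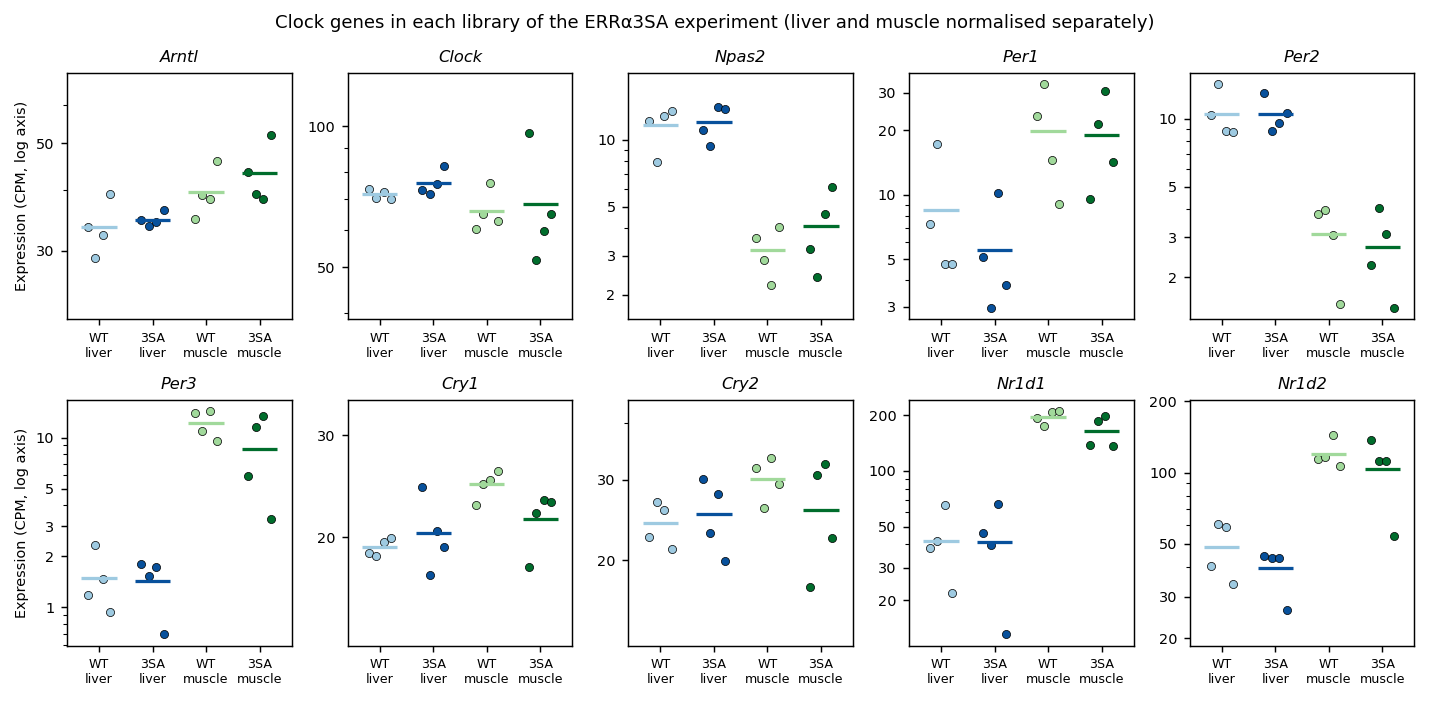
Expression of the 10 clock genes in each liver and muscle of the ERRα3SA experiment, in CPM on a log axis, with liver and muscle normalised separately; points are libraries in replicate order and lines are group means (n = 4). WT and 3SA points overlap for each gene within each tissue, and Nr1d1 sits at 136 to 212 CPM in the muscles.

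The 3SA effect was compared between the tissues as an interaction, in which 0 of 10 genes passed by edgeR (0% of 15688 genes did), 0 of 10 had an unadjusted p under 0.05 (5.62% of all genes did) and DESeq2 called 0, among 27 genes in all. The gene with the smallest unadjusted p was Cry1 at -0.30 (SE 0.16, unadjusted p = 0.0776, adjusted p = 0.941), and the medians were -0.12 for the 10 genes and 0.003 for all genes. The ERRα3SA comparisons and their interaction are a description, since the choice of genes named both tissues.

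WT muscle against WT liver was not a comparison named in the choice, although the levels of the same libraries were in view when it was made. Some clock genes were higher in muscle and others in liver. Values in this paragraph and the next are on a joint scale of the 4 livers and 4 muscles. Per3 was at 1.27, 2.44, 1.53 and 0.968 CPM in liver and 13.7, 10.7, 14.1 and 9.28 CPM in muscle. Muscle was higher in every library, 7.68-fold (log2 2.94, SE 0.23, adjusted p = 2.38e-08). Per2 ran the other way, at 11.2, 14.9, 9.19 and 9.10 CPM in liver and 3.74, 3.87, 3.02 and 1.48 CPM in muscle. It was lower in every muscle library, by -1.87 (SE 0.24, adjusted p = 5.4e-06), so that these period genes moved in opposite directions. Per1 was at 7.90, 18.1, 4.98 and 4.93 CPM in liver and 23.0, 32.1, 14.2 and 8.85 CPM in muscle, groups that overlapped, with a difference of 1.12 (SE 0.41, adjusted p = 0.0219). Muscle was above liver for Per1 at each replicate number, although the numbers are not shown to pair mice.

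Among the activators, Npas2 was at 13.1, 8.36, 13.4 and 14 CPM in liver and 3.52, 2.82, 2.17 and 3.94 CPM in muscle. It was lower in every muscle library, by -1.97 (SE 0.20, ratio 0.256, adjusted p = 3.56e-07). Arntl, at 30.4 to 40.7 CPM in liver and 34.3 to 44.9 CPM in muscle, did not pass (0.14, SE 0.10, adjusted p = 0.206), and Clock, at 72.5 to 79.3 and 59.3 to 74.0 CPM, was lower by -0.22 (SE 0.07, adjusted p = 0.0116) in groups that overlapped. The REV-ERB genes were both higher in muscle. Nr1d1 was at 41.2, 43.5, 68.6 and 22.5 CPM in liver and 189, 172, 204 and 207 CPM in muscle, 4.39-fold higher (log2 2.13, SE 0.23, adjusted p = 7.93e-07) with no overlap. Nr1d2, at 35.0 to 63.5 CPM in liver and 104 to 141 CPM in muscle, was 2.31-fold higher (log2 1.21, SE 0.16, adjusted p = 7.17e-06). Cry1 differed by 0.26 (SE 0.07, adjusted p = 0.00282) and Cry2 by 0.23 (SE 0.10, adjusted p = 0.0403).

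Thus 9 of 10 clock genes passed between the tissues, 6 higher and 3 lower in muscle, beside 86.5% of all 14886 genes, a share near that of the clock genes, so that the count itself says nothing particular about them. The medians were 0.24 for the 10 genes and 0.001 for all genes. DESeq2 called 8 (12845 genes in all), without Per1 (adjusted p = 0.0567, range 9.22e-07 to 0.0958 over 13 alternatives). With the replicate block all 9 passed, Per1 included. Per1 missed the threshold without WT liver replicate 1 (0.0564), 3 (0.056) or 4 (0.0587) and without WT muscle replicate 1 (0.0655) or 2 (0.0958). Cry2 missed it without WT liver replicate 1 (0.12) or 4 (0.169) and without WT muscle replicate 1 (0.138), 3 (0.191) or 4 (0.0863), its range being 0.0123 to 0.339. With all groups of the experiment in the fit 5 genes passed, Npas2, Per2, Per3, Nr1d1 and Nr1d2. Whether liver 1 and muscle 1, for example, were from 1 mouse is not stated, and the collection time of each mouse was not given, so tissue and time of day cannot be told apart for these genes.

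**Figure D5:**
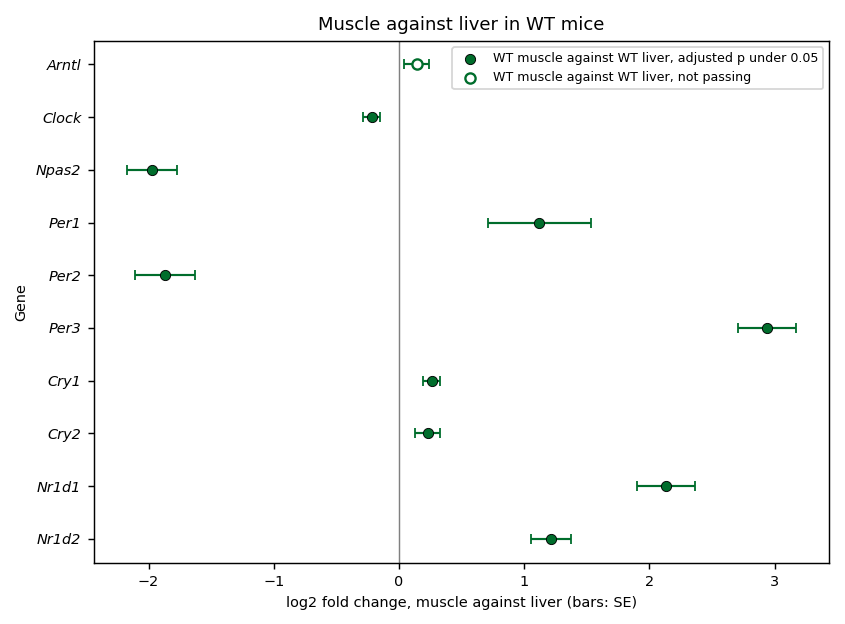
Difference of each clock gene between WT muscle and WT liver on the log2 scale, with SE of the edgeR fit as bars; filled points have an adjusted p under 0.05. Per3, Nr1d1, Nr1d2 and Per1 lie at 1.12 or more, and Npas2 and Per2 at -1.87 or less.

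Nr1d1 and Thra are encoded on opposite strands and share 263 bases of exon at their ends, 8.5% of the exon length of Nr1d1. The strand setting of the counting was not given, so reads there may have been counted for either gene. Thra, which encodes a thyroid hormone receptor, changed by -0.01 with insulin in WT liver, by -0.09 in KO liver and by 2.08 from WT liver to WT muscle on the log2 scale. Its level moved from 15 to 19.9 CPM in liver to 71.4 to 80.2 CPM in muscle, beside that of Nr1d1, and the share of the overlap in either value was not tested. Cry2 shares 295 bases (4.7%) with an antisense transcript, D930015M05Rik, and Arntl 33 bases (0.4%) with Gm45355.

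Beyond the core, a list of 23 other clock genes held nuclear receptors of the ROR family, the PAR bZIP output factors and clock-driven enzymes. It also held kinases and ubiquitin ligase subunits, Gsk3b and Fbxw7 among them, and further clock factors such as Arntl2 and Bhlhe40. Of 22 tested with insulin in WT liver, 0 were higher and 2 lower (3.16% of all genes passed), with 10 at an unadjusted p under 0.05 (17.5% of all genes) and a median of -0.22. Dbp, a PAR bZIP activator driven by E-boxes, was at 30.4, 33.9, 14 and 48.1 CPM with saline and 9.78, 7.72, 4.62 and 7.21 CPM with insulin. It fell in every insulin liver below every saline liver (-2.11, SE 0.34, adjusted p = 0.00924). Noct, which encodes the rhythmic enzyme nocturnin, was at 40.1, 34.6, 37.8 and 41.1 CPM with saline and 20.2, 8.60, 7.51 and 4.29 CPM with insulin, again without overlap (-1.92, SE 0.37, adjusted p = 0.0197). In KO liver the genes called were Dbp and Noct too (2.91% of all genes passed), with 7 of 22 at an unadjusted p under 0.05 (17.8% of all genes) and a median of -0.03. Dbp was at 13.5, 12.4, 8.38 and 17.5 CPM with saline and 5.44, 3.65 and 6.02 CPM with insulin in KO (-1.36, SE 0.26, adjusted p = 0.0232). Noct was at 27.1, 36.5, 37.9 and 33.6 CPM with saline and 6.32, 11 and 6.89 CPM with insulin in KO (-2.07, SE 0.21, adjusted p = 0.00328). In both genotypes the insulin livers were below the saline livers for these genes.

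For knockout against WT with saline, 0 of 22 of these genes passed by edgeR (0.0816% of all genes did) and 6 had an unadjusted p under 0.05 (12.1% of all genes did), the smallest for Dbp (-1.29, SE 0.32, adjusted p = 0.185) and Usp2 (-1.44, SE 0.37, adjusted p = 0.191). With insulin 0 of 21 passed (0.0585% of all genes did) and 0 had an unadjusted p under 0.05 (10% of all genes did). For 3SA against WT, 0 of 21 passed in liver (3 at an unadjusted p under 0.05, beside 7.47% of all genes) and 0 of 21 in muscle (1 at an unadjusted p under 0.05, beside 4.77% of all genes), and 0% of all genes passed in either. From liver to muscle all 22 tested passed, 17 higher and 5 lower, with a median of 0.92, where 86.5% of all genes passed, so that this count too says nothing particular about clock genes. The widest differences were for Bhlhe41, a repressor of E-box genes (6.66, SE 0.18, adjusted p = 1.76e-13), Usp2, a deubiquitinase (5.95, SE 0.18, adjusted p = 3.95e-13), and Fbxl21, a CRY ubiquitin ligase subunit (-5.05, SE 0.31, adjusted p = 1.39e-09).

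Genes of inputs known to reach the clock were read in the same livers, where 3.16% of all genes passed with insulin in WT and 2.91% in KO, and 17.5% and 17.8% had an unadjusted p under 0.05. Of 9 glucocorticoid-responsive genes, 3 were higher with insulin in WT liver and 0 lower, with 6 at an unadjusted p under 0.05 and a median of 0.90. They were Cdkn1a, a cell cycle inhibitor (3.41, SE 0.43, adjusted p = 0.0028), Zbtb16, a transcription factor (1.38, SE 0.32, adjusted p = 0.0424), and Fkbp5, a chaperone of the glucocorticoid receptor (0.90, SE 0.22, adjusted p = 0.0498). In KO liver 1 of 9 was higher, Fkbp5 (1.35, SE 0.18, adjusted p = 0.00643), with 4 at an unadjusted p under 0.05 and a median of 0.45. Of 9 immediate early genes tested in WT liver, 1 was higher, Fos (2.27, SE 0.50, adjusted p = 0.0343), at 0.337 to 0.763 CPM with saline and 1.12 to 4.51 CPM with insulin, 1 had an unadjusted p under 0.05 and the median was 0.42. In KO liver 0 of 9 passed by edgeR, 0 had an unadjusted p under 0.05 and the median was -0.09. Of 7 hepatic insulin-responsive genes tested, 1 was higher in WT liver, Igfbp1, which insulin is known to lower (2.35, SE 0.46, adjusted p = 0.0225), with 5 at an unadjusted p under 0.05 and a median of 0.65. Igfbp1 was at 167, 200, 154 and 77.6 CPM with saline and 773, 1540, 301 and 442 CPM with insulin in WT, all 4 insulin livers above the saline livers. In KO liver 1 of 7 was higher, Irs2, an adaptor of the insulin receptor (0.95, SE 0.22, adjusted p = 0.0466), with 4 at an unadjusted p under 0.05 and a median of 0.61. For knockout against WT with saline, 5 of 9 immediate early genes (median 0.66) and 4 of 9 glucocorticoid-responsive genes (median 1.03) had an unadjusted p under 0.05. So did 2 of 7 hepatic insulin-responsive genes and 12.1% of all genes. With insulin 6 of 10, 1 of 9 and 3 of 7 of these lists did, beside 10% of all genes. By edgeR 0 passed in each list for either comparison. The part of these inputs in the values of the clock genes was not tested.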

How the data were processed

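The members and all gene lists were chosen with earlier results of these data known. The deposited tables hold raw read counts per Ensembl gene, counted by the authors after STAR alignment of the read pairs to mm10; the annotation release and the strand setting of the counting were not given. Symbols came from GENCODE vM21 and matched 34490 of 35275 (97.8%) and 54409 of 54532 (99.8%) identifiers; 0 sample columns were left out. Each comparison was fitted in edgeR 4.0.16 (R 4.3.3) on its own groups, with filterByExpr, TMM scaling and quasi-likelihood F tests, two-sided, with Benjamini-Hochberg adjustment over all genes tested; a gene was called at an adjusted p under 0.05. SE is the log2 change divided by the square root of F. CPM use TMM library sizes within the 15 insulin livers, and within the 8 livers and the 8 muscles of the other experiment; log2 CPM use a prior count of 2. DESeq2 1.42.0, RLE scaling, no filter on low counts, all groups in the fit, a replicate block and the removal of each library were the alternatives. The fits were tested on simulated data with known changes: most were called, with the right sign, and in most comparisons the share of false calls was somewhat above the nominal rate. All 45 pairs of libraries within a group differed in their counts far beyond counting error (smallest chi-square per degree of freedom 6.75), so none was a copy of another in its group; pairs across groups were not compared. Promoter letters came from RefSeq (GRCm38.p6) and were searched on both strands in Python 3.11.15.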

Additional observations from a re-analysis of the deposited data

Results flagged for a closer look

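In 70 groups of 4 livers or muscles (10 genes in each of 7 groups), 5 held a library whose gap to its nearest neighbour passed Dixon's test at the 0.05 level on the log2 scale, the gap being 0.852 or more of the group's range; chance gives this in about 1 in 20 groups. Arntl was at 16.47 CPM in KO saline liver replicate 3 and at 5.302 to 5.674 CPM in the other KO saline livers. Clock was at 69.12 CPM in KO saline liver replicate 4 and at 92.2 to 96.87 CPM in the others. Per2 was at 9.096 CPM in WT saline liver replicate 3, with the others at 16.94 to 17.92 CPM. Per1 was at 68.07 CPM in WT insulin liver replicate 1, with the others at 25.95 to 29.7 CPM. Nr1d2 was at 26.34 CPM in 3SA liver replicate 4, with the others at 43.48 to 44.29 CPM. No cause was tested.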

How the results depend on the processing

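Over all alternatives, 1241 of 1280 changes of the 10 genes kept their side of the threshold, 17 newly passed it, 22 no longer passed it and none that was called turned its sign. RLE in place of TMM moved no change by more than 0.03 on the log2 scale. With insulin in WT liver, where 3 genes were called, DESeq2 called 5 and all groups in the fit 5; with insulin in KO liver, where 0 were called, DESeq2 called 2, all groups in the fit 1 and no filter on low counts 1, which was Arntl in both. For knockout against WT with saline (0 called) DESeq2 called 2, and for WT muscle against WT liver (9 called) all groups in the fit called 5. Leaving out each library in turn gave 2 to 4 calls with insulin in WT liver, 0 to 3 with insulin in KO liver, 7 to 9 between muscle and liver, and 0 to 0 in each of the other 6 comparisons. With the replicate block, 4 genes were called with insulin in WT liver, 1, Arntl, in KO liver and 9 between WT muscle and WT liver. Replicate numbers are not shown to pair mice, so the block stays an alternative. The cause was not tested for any of these. Low counts limit Npas2 in WT saline liver (1 to 39 counts) and Per3 in the 3SA livers (15 to 40 counts).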
